A study of Mus musculus with 16 samples.

Results

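The integrated stress response and its secreted outputs were examined through 10 genes in the tibialis anterior muscle, which lifts the foot. The genes were chosen by name, as the rows of the deposited count table whose Ensembl identifiers carry the symbols Atf3, Atf4, Atf5, Ddit3, Trib3, Asns, Chac1, Fgf21, Gdf15 and Sesn2 in GENCODE on GRCm38, and all 10 were found among 29730 genes. RNA was sequenced from 16 male mice of the C57BL/6N strain, aged 7 weeks, in 4 groups of 4. Wild-type mice received either PBS, a buffered saline (group WT_PBS), or ASO1, an antisense oligonucleotide directed against Dnm2 (group WT_ASO). Bin1mck-/- mice likewise received either PBS (group KO_PBS) or ASO1 (group KO_ASO). Bin1mck-/- is a model of recessive centronuclear myopathy, a congenital muscle disease. The dose, the time since injection and the part of Bin1 removed were not given in the sources used here, and samples are treated as separate mice.

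The integrated stress response begins when a kinase that senses amino acid shortage, misfolded protein, double-stranded RNA or mitochondrial distress phosphorylates the translation factor eIF2. General protein synthesis then slows while the messenger RNA of the transcription factor Atf4 is translated more, so that the protein can rise without a change in its messenger RNA. Atf4 turns on genes for amino acid synthesis and uptake and further transcription factors, and in muscle under mitochondrial stress it drives Fgf21 and Gdf15, which are released as hormones (myokines).

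Total counts ran from 27591900 to 40862854 per sample. The targeted genes followed their labels: Bin1 averaged 495 ± 40.6 CPM (counts per 1000000 of the scaled library size) in WT_PBS and 44.9 ± 3.27 in KO_PBS (SD, n = 4 each), and Dnm2 averaged 62.8 ± 3.63 CPM in KO_PBS and 24.8 ± 4.48 in KO_ASO. Library replicate 4 of KO_ASO had the lowest Chac1 of all 16, the highest Psat1 of its group and the highest sum of 5 erythroid markers (424 CPM, beside 23.4 to 51.8 in the other KO_ASO libraries and 43.2 to 256 in the other groups). Calls of the genes named here that changed without it are given with both values, and the part of blood in them was not tested. The 6 skeletal muscle fibre markers examined (such as Acta1 and Ckm) summed to between 94645 and 203085 CPM in every library.

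Atf4 reaches many of its targets through a composite C/EBP-ATF element, and the promoters of the 10 genes were searched for this known element of the pathway. The 250 bases before the RefSeq start (GRCm38.p6) were read on both strands for the element TTGCATCA. It was present in 3 of the 10 genes, Atf3, Chac1 and Fgf21, and in 0.791% of 32851 promoter windows of the same length. With the third base left free (TTNCATCA), Asns joined them, with a match 23 bases before its start, against 3.45% of all windows. A site like the cyclic AMP response element (TGACGTNA) was found in Atf3 alone among the 10, against 2.52% of all windows. The windows of the 3 genes that hold the full element are given 5′ to 3′ on the strand of the gene, with matches in capitals. The Atf3 window is chr1:191183334-191183583 (minus strand), the Chac1 window is chr2:119350992-119351241 (plus strand) and the Fgf21 window is chr7:45615491-45615740 (minus strand).
Atf3: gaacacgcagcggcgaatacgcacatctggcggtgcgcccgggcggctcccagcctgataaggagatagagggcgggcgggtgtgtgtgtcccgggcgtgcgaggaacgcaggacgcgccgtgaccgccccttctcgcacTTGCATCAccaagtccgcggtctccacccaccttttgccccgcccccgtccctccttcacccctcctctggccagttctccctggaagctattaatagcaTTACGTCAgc
Chac1: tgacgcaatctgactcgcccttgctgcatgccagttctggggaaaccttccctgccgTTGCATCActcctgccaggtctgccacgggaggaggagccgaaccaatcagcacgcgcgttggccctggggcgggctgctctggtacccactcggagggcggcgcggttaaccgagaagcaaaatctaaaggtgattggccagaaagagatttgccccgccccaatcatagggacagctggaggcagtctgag
Fgf21: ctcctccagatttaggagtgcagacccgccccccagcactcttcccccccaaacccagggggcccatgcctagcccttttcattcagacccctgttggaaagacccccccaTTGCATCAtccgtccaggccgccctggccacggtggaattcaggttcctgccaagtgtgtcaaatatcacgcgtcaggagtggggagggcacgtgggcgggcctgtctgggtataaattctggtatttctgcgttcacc
The element begins 110 bases before the start in Atf3, 193 in Chac1 and 139 in Fgf21, and the second match in Atf3 begins 10 bases before the start. A match describes the sequence and does not show that a factor was bound in these muscles.

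Levels of different genes were compared per length, as CPM divided by the exon length in kilobases (RPKM). In WT_PBS the order was Atf4 (60.1 ± 7.23 RPKM, SD, n = 4 for all), Chac1 (30.3 ± 9.96), Atf5 (22.7 ± 6.75), Ddit3 (10.2 ± 1.79), Atf3 (4.05 ± 2.08), Sesn2 (0.877 ± 0.169), Trib3 (0.668 ± 0.168) and Asns (0.501 ± 0.179), followed by Gdf15 (0.0178 ± 0.0176) and Fgf21 (0). Chac1 and Atf5 were not separated beyond the sum of their SDs, nor were Sesn2 and Trib3 or Trib3 and Asns. In KO_PBS, Atf3 averaged 12.3 ± 3.28 RPKM and stood above Ddit3 at 7.53 ± 1.41.

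**Figure D1:**
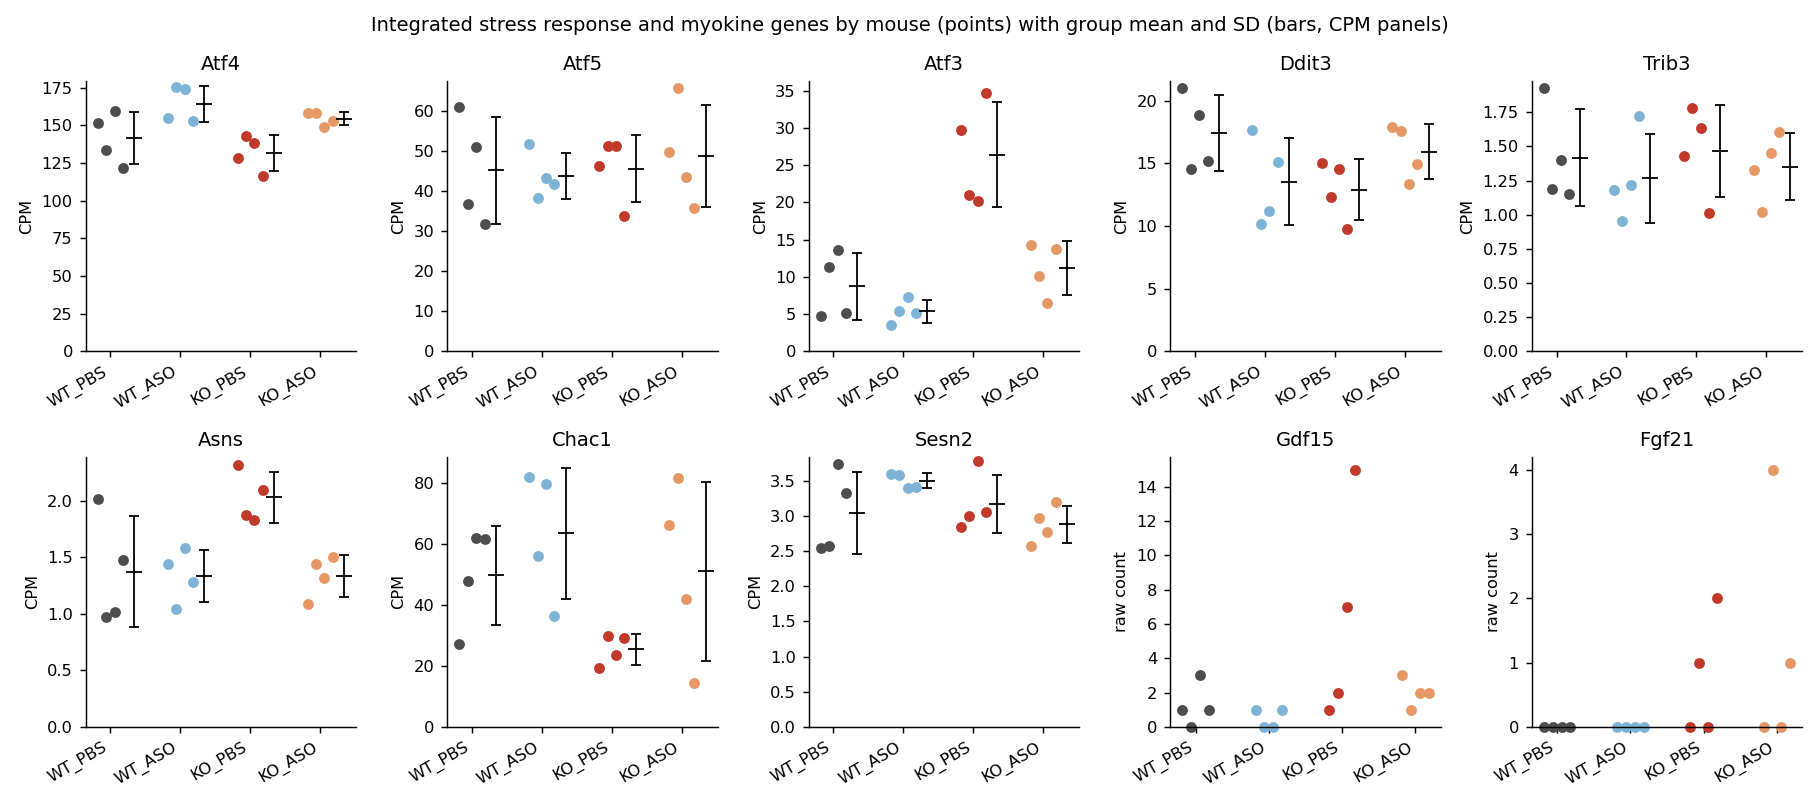
Level of each of the 10 genes in every mouse, as CPM for 8 genes and as raw counts for Gdf15 and Fgf21. Each point is 1 of 4 mice of a group (replicates 1 to 4 from left to right), and the bars beside the CPM points are the group mean and SD. Atf3 lies between 20.2 and 34.8 CPM in KO_PBS, above all other groups, whereas Fgf21 has no read in the 8 wild-type mice.

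The effect of losing Bin1 was read from KO_PBS against WT_PBS. Atf3 was upregulated 3.03-fold and was the only one of the 8 genes tested that was called a differentially expressed gene (DEG, edgeR quasi-likelihood test, adjusted P value under 0.05). The remaining 7 did not pass, with log2-fold changes (log2FC) from -0.96 for Chac1 to 0.56 for Asns. Thus 1 of 8 was called, where 12.6% of all 14960 genes tested were, 7.43% higher and 5.12% lower. In this comparison 5 of the 8 had a positive log2FC and their median was 0.03, beside -0.01 for all genes. A total of 4 had an unadjusted P value under 0.05 (Atf3, Asns, Ddit3 and Chac1), where 27.3% of all genes did, and DESeq2 also called 1. Fgf21 and Gdf15 had too few reads to enter the test.

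Atf3 encodes a stress-induced transcription factor that is itself a target of Atf4 and also responds to injury and to inflammatory signals. It measured 4.77, 11.4, 13.7 and 5.11 CPM in the WT_PBS mice, replicates 1 to 4, and 29.7, 21.0, 20.2 and 34.8 CPM in the KO_PBS mice. The lowest knockout value was above the highest wild-type value, so the groups did not overlap, which was true of 1 of the 8 genes here and of 20.4% of all genes. The log2FC was 1.60 (SE 0.35, 95% interval 0.86 to 2.34, edgeR adjusted P value = 0.00745). An exact permutation test of log2 CPM (two-sided, n = 4 per group) gave P = 0.0286 for Atf3, the smallest value that 4 against 4 allows, and 0.0571 to 0.857 for the other 7 genes. The call held under all 22 alternatives, with a log2FC from 1.39 to 1.91.

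Atf4 itself, the central transcription factor of the response, measured 152, 134, 159 and 122 CPM in WT_PBS and 129, 143, 138 and 116 CPM in KO_PBS. These values overlapped, and the log2FC was -0.11 (SE 0.09, 95% interval -0.30 to 0.09, edgeR adjusted P value = 0.490). Without scaling beyond library totals it was 0.04, beside a median of 0.14 for all genes under that setting and -0.01 on the main scale. Atf5, a relative of Atf4 that is also regulated at translation and is tied to the mitochondrial stress response, ranged from 31.8 to 61.2 CPM in WT_PBS and from 33.8 to 51.4 CPM in KO_PBS (log2FC 0.01, 95% interval -0.43 to 0.46). Its sign turned on leaving out any of 4 libraries.

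Ddit3, which encodes the pro-apoptotic factor Chop, was lower on average in the knockout without passing the test. It measured 21.0, 14.6, 18.9 and 15.2 CPM in WT_PBS and 15.0, 12.3, 14.5 and 9.71 CPM in KO_PBS. Of the knockout values 3 lay below the wild-type range and 1 within it, and the log2FC was -0.43 (SE 0.18, 95% interval -0.82 to -0.05, edgeR adjusted P value = 0.131). Trib3, a pseudokinase induced by Atf4 and Chop that restrains Akt, had 32 to 66 raw counts in WT_PBS and 41 to 67 in KO_PBS (log2FC 0.04, 95% interval -0.46 to 0.55).

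The downstream enzymes pointed in opposite directions, and neither was called. Asns, which makes asparagine, had 69, 26, 39 and 59 raw counts in WT_PBS and 84, 66, 75 and 85 in KO_PBS, or 2.02, 0.968, 1.01 and 1.48 CPM against 2.32, 1.87, 1.83 and 2.10 CPM. WT_PBS replicate 1 lay within the knockout range, and the log2FC was 0.56 (SE 0.22, edgeR adjusted P value = 0.111). Without that library it was 0.80 and passed the test (adjusted P value = 0.0260).

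Chac1, which breaks down glutathione, measured 27.2, 47.7, 61.8 and 61.6 CPM in WT_PBS and 19.2, 29.8, 23.5 and 29.2 CPM in KO_PBS. Again WT_PBS replicate 1 lay among the knockout values. The log2FC was -0.96 (SE 0.43, edgeR adjusted P value = 0.163), and it passed the test when only these groups were fitted (adjusted P value = 0.0290) or when KO_ASO replicate 4 was left out of the shared estimate of spread (adjusted P value = 0.0467). Sesn2, a sensor that restrains mTORC1 when leucine is scarce, ranged from 2.54 to 3.74 CPM in WT_PBS and from 2.84 to 3.78 CPM in KO_PBS (log2FC 0.05, 95% interval -0.26 to 0.36).

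The myokines were at or near 0. Fgf21 had 0 counts in every wild-type mouse, which over the 143102796 counts of WT_PBS allows up to 0.0210 CPM (3 counts over the group, counting error only). It had 0, 1, 0 and 2 counts in KO_PBS and 0, 4, 0 and 1 in KO_ASO, so that no difference was detectable at this depth. Gdf15 had 1, 0, 3 and 1 counts in WT_PBS, 1, 0, 0 and 1 in WT_ASO, 1, 2, 7 and 15 in KO_PBS and 3, 1, 2 and 2 in KO_ASO. Of the 25 Gdf15 reads of KO_PBS, 22 came from replicates 3 and 4. The ratio of pooled counts, KO_PBS to WT_PBS, was 5.05 (exact 95% interval 1.90 to 16.9), an interval that covers counting error only and not the spread between mice. Without KO_PBS replicate 4 the ratio was 2.74 (0.853 to 10.2), and without WT_PBS replicate 3 it was 9.15 (2.28 to 79.7). In the edgeR fit without a filter on low counts, Gdf15 was not called (adjusted P value = 0.179).

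The effect of lowering Dnm2 in the knockout was read from KO_ASO against KO_PBS. None of the 8 genes was called by edgeR, where 3.64% of all genes were (0.802% higher and 2.83% lower), although 4 had an unadjusted P value under 0.05 (Atf3, Atf4, Asns and Chac1), beside 17.7% of all genes, and DESeq2 called 1, Atf3. The groups did not overlap for 3 of the 8, Atf3 and Asns with lower and Atf4 with higher values in KO_ASO, beside 10.4% of all genes. For these 3 the two-sided exact permutation test gave its smallest possible P of 0.0286. It was run 40 times in all, over 8 genes and 5 pairs of groups, and 5 gave a P under 0.05.

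Atf3 measured 14.2, 10.1, 6.47 and 13.8 CPM in KO_ASO, replicates 1 to 4. All 4 values lay below the lowest KO_PBS value of 20.2 CPM, and the log2FC was -1.24 (SE 0.34, 95% interval -1.97 to -0.51, edgeR adjusted P value = 0.0580). This missed the threshold, and it passed with DESeq2 (adjusted P value = 0.0062), without scaling beyond library totals (0.0310), and on leaving out WT_PBS replicate 1 (0.0482) or WT_PBS replicate 3 (0.0465). Over all alternatives the adjusted P value ran from 0.0062 to 0.171. The KO_ASO values overlapped those of WT_PBS (log2FC 0.36, 95% interval -0.38 to 1.09).

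Asns had 40, 45, 38 and 43 raw counts in KO_ASO, or 1.09, 1.44, 1.32 and 1.50 CPM, all below the lowest KO_PBS value of 1.83 CPM. The log2FC was -0.61 (SE 0.22, edgeR adjusted P value = 0.152). Atf4 measured 158, 158, 149 and 153 CPM in KO_ASO, all above the highest KO_PBS value of 143 CPM, where the log2FC was 0.23 (SE 0.09, edgeR adjusted P value = 0.182).

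Chac1 had a coefficient of variation of 57.7% in KO_ASO, the highest of the 8 tested genes there, at 66.0, 81.5, 42.0 and 14.2 CPM. The first 3 mice lay above every KO_PBS value, and replicate 4 lay below them all. The log2FC was 1.002 (SE 0.43, edgeR adjusted P value = 0.233), and without KO_ASO replicate 4 it was 1.31 and passed the test (adjusted P value = 0.0306). On other omissions of single libraries it fell to as little as 0.67, and the edgeR adjusted P value reached 0.511. Ddit3 measured 17.9, 17.6, 13.3 and 14.9 CPM in KO_ASO and overlapped KO_PBS (log2FC 0.31, 95% interval -0.08 to 0.69). Atf5, Trib3 and Sesn2 had log2FCs between -0.14 and 0.10, none of which passed the test. The ratio of pooled Gdf15 counts, KO_ASO to KO_PBS, was 0.364 (exact 95% interval 0.142 to 0.832, counting error only), and without KO_PBS replicate 4 it was 0.670 (0.230 to 1.89). Gdf15 was not called in the edgeR fit without a filter on low counts (adjusted P value = 0.619).

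**Figure D2:**
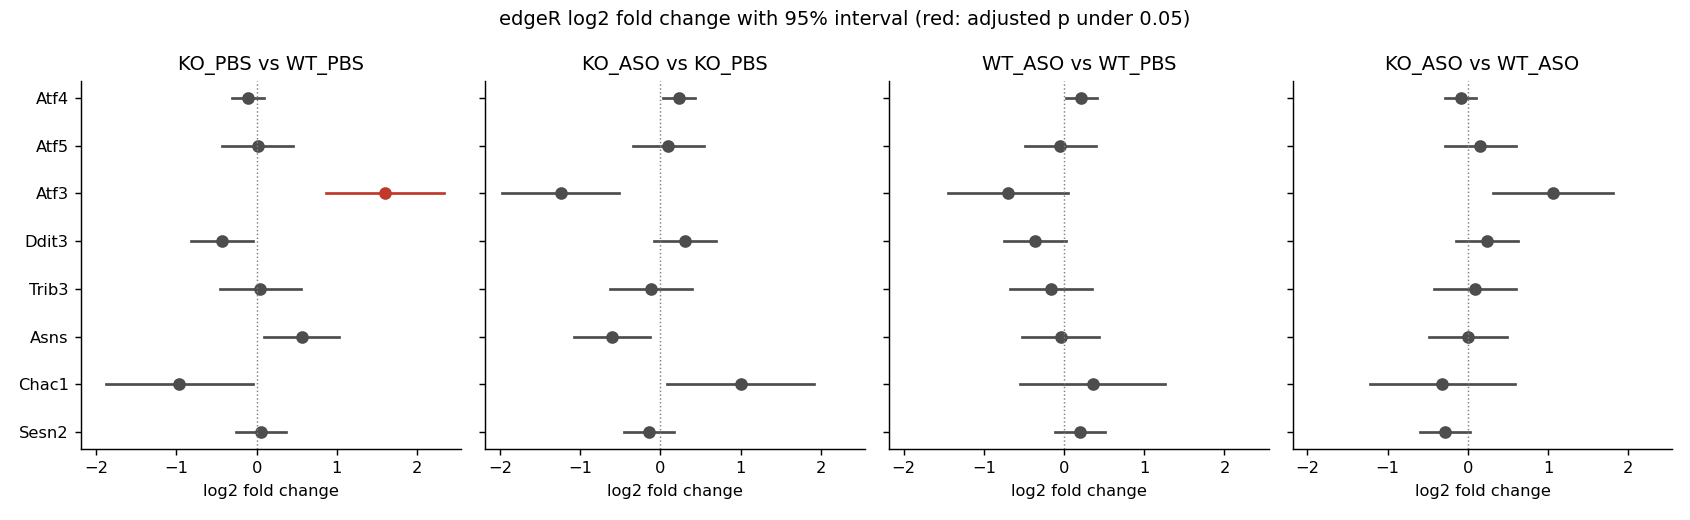
Log2FC of the 8 tested genes in 4 comparisons, with the 95% interval of the edgeR fit as a line, and in red the comparison with an adjusted P value under 0.05. Only Atf3 in KO_PBS vs WT_PBS (1.60) is red, and its estimate in KO_ASO vs KO_PBS is -1.24.

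The oligonucleotide in wild-type muscle, WT_ASO against WT_PBS, changed none of the 8 genes past the threshold by edgeR or DESeq2, where edgeR called 0.00668% of all genes. The groups did not overlap for 0 of the 8, beside 3.22% of all genes. Only Atf4 had an unadjusted P value under 0.05, beside 6.45% of all genes, at 155, 175, 174 and 153 CPM in WT_ASO (log2FC 0.21, SE 0.09, adjusted P value = 0.755). Atf3 was at 3.53, 5.41, 7.29 and 5.17 CPM in WT_ASO, the lowest mean of the 4 groups, with a log2FC of -0.70 (95% interval -1.45 to 0.05).

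Treated knockout muscle was compared with treated and with saline wild-type muscle. In KO_ASO vs WT_ASO none of the 8 was called by edgeR or DESeq2 (0.0735% of all genes were by edgeR), and Atf3 alone had an unadjusted P value under 0.05, beside 15.1% of all genes. Its log2FC was 1.06 (SE 0.35, adjusted P value = 0.195), and the lowest KO_ASO mouse, at 6.47 CPM, lay below the highest WT_ASO mouse, at 7.29 CPM. Sesn2 was the only gene of the 8 whose groups did not overlap in this comparison, beside 6.97% of all genes, at 2.58 to 3.21 CPM in KO_ASO and 3.40 to 3.60 CPM in WT_ASO (log2FC -0.28, adjusted P value = 0.379). In KO_ASO vs WT_PBS, 0 of the 8 were called by edgeR or DESeq2 and 0 had an unadjusted P value under 0.05, beside 0.0401% and 8.22% of all genes, with log2FCs from -0.13 to 0.36.

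Whether the oligonucleotide acted differently in the 2 genotypes was tested by the interaction, the change in knockout minus the change in wild type. None of the 8 was called by edgeR or DESeq2, where edgeR called 0.575% of all genes. Ddit3 alone had an unadjusted P value under 0.05, beside 12.7% of all genes, with an interaction of 0.67 on the log2 scale (SE 0.26, adjusted P value = 0.271). The interaction for Atf3 was -0.54 (95% interval -1.58 to 0.50).

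Other genes of the pathway were followed through 9 lists, of which 95 genes were tested. The lists were chosen with earlier results of these data known, so their shares of calls are a description and not a test. In KO_PBS vs WT_PBS, 22 of the 95 were DEGs, 13 higher and 9 lower, or 23.2% beside 12.6% of all genes (7.43% higher and 5.12% lower). Of all DEGs in this comparison 59.2% were higher, and 88.2% without scaling beyond library totals. DESeq2 called 28 of the 95 there, and among all genes it called 1424 higher and 1054 lower. In KO_ASO vs KO_PBS, 6 of 95 were DEGs, 2 higher and 4 lower, beside 3.64% of all genes. Of all DEGs there 22.1% were higher, and 8.29% without that scaling.

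Upstream of Atf4, 1 of 12 genes for eIF2 kinases, phosphatase subunits and eIF2B was called in KO_PBS vs WT_PBS, with a list median of -0.08 and 5 of 12 positive. Without scaling beyond library totals the median was 0.07, with 9 of 12 positive and 0 called by edgeR. The median of all genes moved from -0.01 to 0.14 under that setting. Relative to it the list's median was -0.07 under both, with 5 of 12 above it. The gene called on the main scale was Eif2ak1, the heme-regulated kinase, whose log2FC was -0.27 (SE 0.08, edgeR adjusted P value = 0.0328). The call was lost without scaling beyond library totals, without the filter on low counts, and on 5 of 16 omissions of single libraries. Ppp1r15a, which encodes Gadd34, the subunit that lets the phosphatase act on eIF2, had a log2FC of 0.12 (SE 0.19) and is named although it was not called. Of the 8 genes for the mitochondrial stress relay and its chaperones, 0 were called by edgeR, 2 had an unadjusted P value under 0.05 and DESeq2 called 1. Their median was -0.10 with 1 of 8 positive, and 0.04 with 5 of 8 positive without scaling beyond library totals. Relative to the median of all genes it was -0.09 on the main scale and -0.10 without that scaling, with 1 of 8 above under both.

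Enzymes of amino acid and one-carbon synthesis changed in both directions, with 2 of 12 higher and 2 lower. Psat1, the aminotransferase of serine synthesis, measured 0.965, 1.75, 1.06 and 1.20 CPM in WT_PBS and 6.81, 4.90, 4.83 and 5.13 CPM in KO_PBS (33 to 48 and 173 to 247 raw counts). The groups were far apart, and the log2FC was 2.13 (SE 0.32, edgeR adjusted P value = 0.000414). It measured 1.60, 1.25, 1.32 and 3.69 CPM in KO_ASO, all below KO_PBS, and its log2FC against KO_PBS was -1.47 (SE 0.31, adjusted P value = 0.0146). That call was lost when only these groups were fitted (adjusted P value = 0.0544) and on leaving out KO_PBS replicate 1 (0.0549), KO_ASO replicate 1 (0.0631) or KO_ASO replicate 3 (0.0519). Without KO_ASO replicate 4 the log2FC was -1.96 (adjusted P value = 0.00078).

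Mthfd2, the mitochondrial folate enzyme, measured 3.83, 3.76, 3.32 and 3.03 CPM in WT_PBS, 7.11, 7.25, 7.83 and 8.43 CPM in KO_PBS and 5.38, 4.51, 4.22 and 4.67 CPM in KO_ASO. It was upregulated in KO_PBS vs WT_PBS (log2FC 1.14, SE 0.11, edgeR adjusted P value = 1.25e-05) and downregulated in KO_ASO vs KO_PBS (log2FC -0.70, SE 0.11, adjusted P value = 0.00266), and both calls held under all alternatives. Psph, the last enzyme of serine synthesis, went the other way, from 11.4 ± 0.129 CPM in WT_PBS to 8.52 ± 0.512 in KO_PBS (log2FC -0.42, adjusted P value = 0.0056) and 10.8 ± 0.617 in KO_ASO (log2FC 0.34 against KO_PBS, adjusted P value = 0.0420). The second call was lost on 11 of 16 omissions of single libraries, without scaling beyond library totals (adjusted P value = 0.0976), without the filter on low counts (0.167) and when only these groups were fitted (0.0826). Gpt2, the mitochondrial alanine aminotransferase, fell from 457 ± 68.9 to 214 ± 76.6 CPM (log2FC -1.10, adjusted P value = 0.00666). In KO_ASO vs KO_PBS its log2FC was 0.83 (adjusted P value = 0.0631), and it passed the test with DESeq2 (adjusted P value = 0.0111), without KO_PBS replicate 4 (log2FC 1.02, adjusted P value = 0.0349) and without KO_ASO replicate 4 (log2FC 0.93, adjusted P value = 0.0410). Of 7 amino acid transporters tested, 1 was called, Slc7a1 for cationic amino acids, higher with a log2FC of 0.62 (adjusted P value = 0.0288, lost on 5 of 16 omissions).

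**Figure D3:**
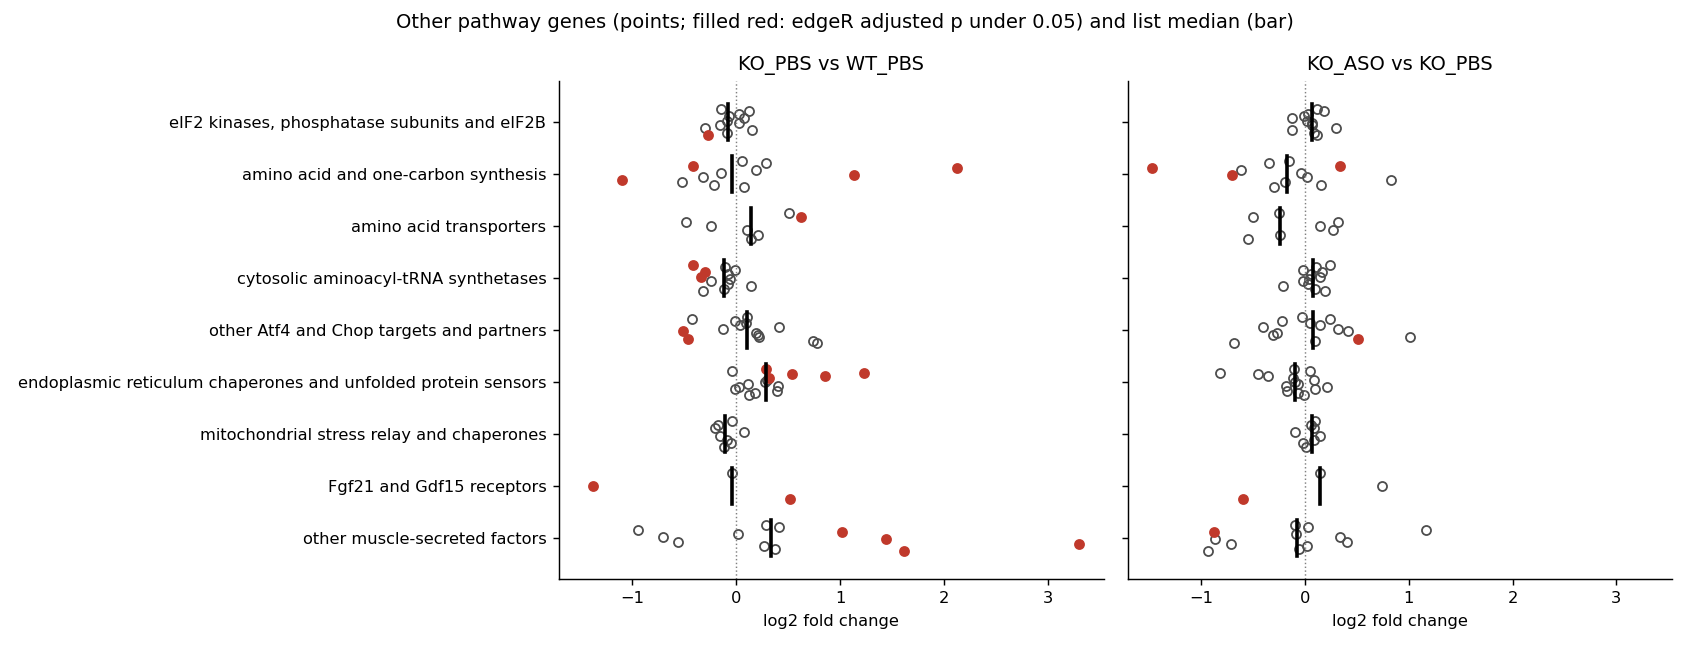
Log2FC of the other pathway genes by list in KO_PBS vs WT_PBS and in KO_ASO vs KO_PBS. Each point is a gene, filled red where the edgeR adjusted P value is under 0.05, and the vertical bar is the list median. Psat1 (2.13) and Mthfd2 (1.14) lie to the right in the first panel and to the left in the second, and 5 endoplasmic reticulum genes are red in the first.

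Among the 12 cytosolic aminoacyl-tRNA synthetases, which charge transfer RNAs and are classical Atf4 targets, 3 were lower in KO_PBS vs WT_PBS and 0 higher by edgeR, and DESeq2 called 4, all lower. Of all genes 5.12% were called lower and 7.43% higher by edgeR. Yars had a log2FC of -0.42 (edgeR adjusted P value = 0.00291), Mars of -0.34 (0.0268) and Sars of -0.30 (0.0253). The Mars call was lost on 4 and the Sars call on 5 of 16 omissions of single libraries, and the Sars call also without the filter on low counts (adjusted P value = 0.0590). Of the 12, 11 had a negative log2FC on the main scale, with a median of -0.11, whereas without scaling beyond library totals the median turned to 0.04, only Yars was still called lower, and 1 was called higher. The median of all genes moved from -0.01 to 0.14 under that setting, and relative to it the list's median was -0.10 under both.

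The list of other Atf4 and Chop targets and partners had 2 of 14 lower in KO_PBS vs WT_PBS and 0 higher by edgeR, while 4 had an unadjusted P value under 0.05 and DESeq2 called 2 lower and 1 higher. Of all genes 5.12% were called lower by edgeR and 27.3% had an unadjusted P value under 0.05. Cebpg, a partner with which Atf4 binds the composite element, fell from 71.5 ± 6.43 CPM in WT_PBS to 51.8 ± 2.04 in KO_PBS (log2FC -0.47, edgeR adjusted P value = 0.00245). It was 73.7 ± 5.64 CPM in KO_ASO, higher than KO_PBS with a log2FC of 0.51 (adjusted P value = 0.00401), and both calls held under all alternatives. Herpud1, which takes part in the disposal of misfolded endoplasmic reticulum proteins, had a log2FC of -0.52 (adjusted P value = 0.0171, lost without scaling beyond totals and on leaving out WT_PBS replicate 3 or KO_PBS replicate 1).

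Endoplasmic reticulum chaperones and unfolded protein sensors were higher in KO_PBS vs WT_PBS for 5 of 15 and lower for 0 by edgeR, with 13 of 15 positive and a median log2FC of 0.29, and DESeq2 called 6, all higher. Of all genes 7.43% were called higher and 5.12% lower by edgeR. Without scaling beyond library totals 8 were called higher, all 15 were positive and the median was 0.44, beside 0.14 for all genes. In the same comparison all 10 macrophage markers were called higher and all 5 fibroblast markers were positive. Pdia4, a disulfide isomerase, had a log2FC of 0.54 (SE 0.13, edgeR adjusted P value = 0.0139), Manf, a secreted stress factor, of 0.86 (SE 0.23, 0.0238), Sdf2l1, a chaperone cofactor, of 1.23 (SE 0.36, 0.0367) and Xbp1, the transcription factor spliced by Ern1, of 0.29 (SE 0.09, 0.0419). The fifth was the chaperone Hyou1 at 0.32 (adjusted P value = 0.0446), named after its values were seen. These calls were close to the threshold, since Pdia4 was lost on 1, Manf on 4, Sdf2l1 on 7 and Xbp1 on 8 of 16 omissions of single libraries, and Manf (adjusted P value = 0.0566) and Xbp1 (0.0837) were also lost without the filter on low counts. In KO_ASO vs KO_PBS 0 of 15 were called by edgeR, 3 had an unadjusted P value under 0.05 and DESeq2 called 1. Without KO_ASO replicate 4, Pdia4 (log2FC -0.56, and -0.45 with it), Manf (-0.67, and -0.35 with it) and Sdf2l1 (-1.43, and -0.82 with it) were called lower. Other omissions of single libraries brought them as near to 0 as -0.36, -0.20 and -0.54. Over the omissions their edgeR adjusted P values reached 0.222, 0.755 and 0.487.

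Of the receptors for the myokines, Fgfr1 was higher in KO_PBS (85.9 ± 6.11 CPM) than in WT_PBS (60.0 ± 6.99 CPM), and the log2FC was 0.52 (edgeR adjusted P value = 0.00456). It was 56.8 ± 7.05 CPM in KO_ASO, a log2FC of -0.60 against KO_PBS (adjusted P value = 0.00548). Fgfr4 fell from 4.14 ± 0.716 to 1.58 ± 0.314 CPM in KO_PBS (log2FC -1.38, adjusted P value = 0.000564). It was 2.65 ± 0.731 CPM in KO_ASO, a log2FC of 0.74 against KO_PBS that did not pass by edgeR (adjusted P value = 0.0683) and passed with DESeq2 (0.0227) or without KO_PBS replicate 3 (0.0448). The co-receptor Klb, which Fgf21 needs, had too few reads to be tested.

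Other factors that muscle secretes were higher for 4 of 12 in KO_PBS vs WT_PBS and lower for 0 by edgeR, while 6 had an unadjusted P value under 0.05 and DESeq2 called 5, 1 of them lower. Of all genes 7.43% were called higher and 5.12% lower by edgeR, and 27.3% had an unadjusted P value under 0.05. Fst, an inhibitor of myostatin and activins, had a log2FC of 1.44 (SE 0.27, edgeR adjusted P value = 0.00245). Its log2FC of -0.87 in KO_ASO vs KO_PBS did not pass by edgeR (adjusted P value = 0.0765) and passed with DESeq2 (0.0312) or without KO_PBS replicate 3 (-1.03, adjusted P value = 0.0377). On other omissions of single libraries it came as near to 0 as -0.54, and the edgeR adjusted P value reached 0.229. In that comparison edgeR called 1 of the 12 and DESeq2 called 3. Metrnl, a cytokine induced by exercise, had one of 1.02 (SE 0.20, adjusted P value = 0.00307) and fell by 0.88 on the log2 scale in KO_ASO vs KO_PBS (adjusted P value = 0.0213), a call lost on leaving out KO_PBS replicate 1 or 4 or KO_ASO replicate 1 or 3. Cxcl10, an interferon-induced chemokine, rose from 0.103 ± 0.037 to 1.02 ± 0.769 CPM (log2FC 3.30, adjusted P value = 0.0031). Its raw counts were low and uneven, at 2, 4, 4 and 4 in WT_PBS and 13, 24, 38 and 86 in KO_PBS, and without KO_PBS replicate 4, which also had the highest sum of macrophage markers (393 CPM), the log2FC was 2.67 (adjusted P value = 0.00978). Angptl4, an inhibitor of lipoprotein lipase, had a log2FC of 1.61 (adjusted P value = 0.0429, lost on 8 of 16 omissions, without the filter on low counts at 0.127 and with a replicate block at 0.0588). Mstn, which encodes myostatin, was named after its values were seen, and its log2FC of -0.94 did not pass by edgeR (adjusted P value = 0.0772).

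Macrophage, fibroblast and neutrophil markers moved in the direction of Atf3 in KO_PBS vs WT_PBS and in KO_ASO vs KO_PBS. In WT_ASO vs WT_PBS all 10 macrophage markers were positive (median log2FC 0.46), where Atf3 was at -0.70. In KO_ASO vs WT_ASO 1 of the 10 was positive (median -0.33), where Atf3 was at 1.06. Of 4 endothelial markers, 0 were positive in KO_PBS vs WT_PBS and 4 in KO_ASO vs KO_PBS. All 10 macrophage markers were called higher in KO_PBS vs WT_PBS and 7 were called lower in KO_ASO vs KO_PBS, with a summed level of 47.8 to 78.8 CPM in WT_PBS, 50.5 to 109 in WT_ASO, 124 to 393 in KO_PBS and 51.7 to 77.8 in KO_ASO. None of them averaged 0 in any group. Within KO_PBS, replicates 4, 1, 2 and 3 had macrophage sums of 393, 210, 124.4 and 124.0 CPM and Atf3 at 34.8, 29.7, 21.0 and 20.2 CPM. Both had the same order, although replicates 2 and 3 were nearly tied in the macrophage sum. All 4 mice were above every wild-type mouse in both. All 5 fibroblast markers were positive in KO_PBS vs WT_PBS (median log2FC 0.84, 2 called higher) and negative in KO_ASO vs KO_PBS (median -0.80, 1 called lower), with sums of 745 to 1013 CPM in WT_PBS, 319 to 1212 in WT_ASO, 1001 to 1727 in KO_PBS and 396 to 1343 in KO_ASO. Both neutrophil markers with enough reads were positive in the first (median 2.498) and negative in the second (median -2.08), and 0 were called by edgeR in either, while 2 and 1 had an unadjusted P value under 0.05 and DESeq2 called 1 and 0. The sum of the 4 neutrophil markers was highest, at 7.47 CPM, in KO_PBS replicate 4. Without KO_PBS replicate 4 the Atf3 log2FC against WT_PBS was 1.44 (edgeR adjusted P value = 0.0249). In whole muscle, a change in the number of cells of a type and a change in the RNA of each cell cannot be told apart, and the part of these cell types in the results for Atf3, the endoplasmic reticulum genes, the secreted factors and the other pathway genes was not tested.

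**Figure D4:**
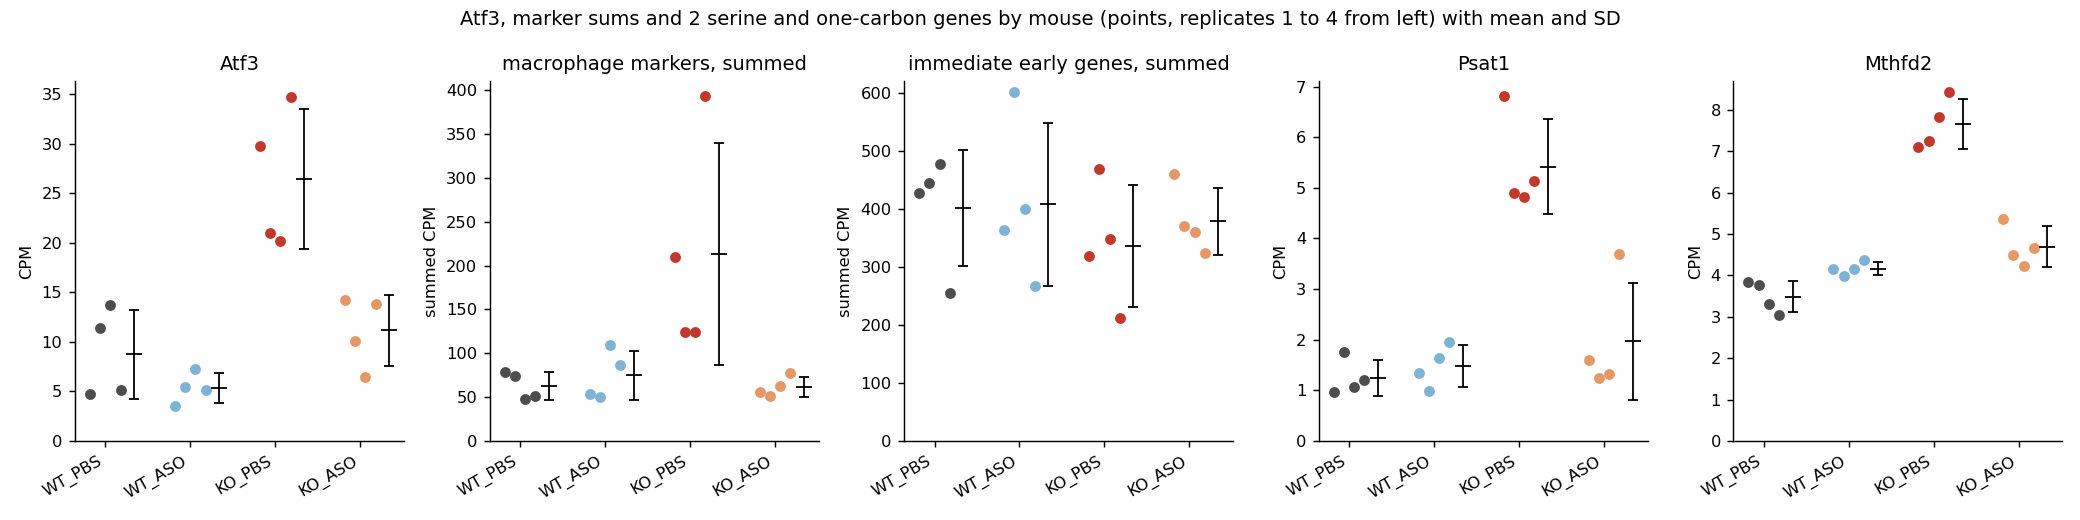
Level in every mouse of Atf3, of 10 macrophage markers summed, of 8 immediate early genes summed, and of Psat1 and Mthfd2, all in CPM. Points are mice (replicates 1 to 4 from left), bars the group mean and SD. The means of Atf3, the macrophage sum, Psat1 and Mthfd2 are all highest in KO_PBS. The largest part of the immediate early sum is Nr4a1, which averages 282 CPM in WT_PBS and 156 in KO_PBS.

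Immediate early genes, which rise with handling of tissue and of which Atf3 is sometimes counted as a member, had a positive log2FC in KO_PBS vs WT_PBS for 6 of 8, with a median of 0.64, and 1 was called higher by edgeR (Junb, log2FC 1.46, adjusted P value = 0.0491) while 4 had an unadjusted P value under 0.05. Egr1, at 18.1 ± 14.3 CPM in WT_PBS and 46.8 ± 23.2 in KO_PBS, and Btg2, at 22.3 ± 4.95 and 38.3 ± 10.03, were not called by edgeR. DESeq2 called 2 of the 8, with 0 of them lower. In KO_ASO vs KO_PBS 6 of the 8 were negative, with a median of -0.40, and 0 were called by edgeR or DESeq2 while 1 had an unadjusted P value under 0.05. Their sum, 256 to 478 CPM in WT_PBS, 267 to 601 in WT_ASO, 212 to 468 in KO_PBS and 324 to 461 in KO_ASO, has Nr4a1 as its largest part, whose log2FCs had the opposite signs (-0.85 and 0.63, neither called). These genes were named after their values were seen.

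Skeletal muscle fibre markers also moved, with sums of 133589 to 174750 CPM in WT_PBS, 139961 to 203085 in WT_ASO, 94645 to 118970 in KO_PBS and 119171 to 140630 in KO_ASO, so that every KO_PBS sum lay below every sum of the other groups. In KO_PBS vs WT_PBS all 6 were negative, with a median log2FC of -0.40 and 2 called lower. Without scaling beyond library totals 4 were negative and 0 were called by edgeR. Relative to the median of all genes, their median was -0.39 on the main scale and -0.38 without that scaling, with 0 of 6 above it under both. In KO_ASO vs KO_PBS all 6 were positive (5 without that scaling), with a median of 0.25, and 0 were called by edgeR while 2 had an unadjusted P value under 0.05 and DESeq2 called 1. Satellite cell markers were lower in KO_PBS for 3 of 3. The part of handling, fibre content or satellite cells in the results for the 10 genes was not tested.

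The genes whose log2 CPM over the 16 samples was most like that of the 3 genes with the smallest P values in KO_PBS vs WT_PBS are given as a description, since samples of a group share its treatment. For Atf3 they were Capn2 (Pearson r = 0.908), Tiam2 (r = 0.904) and Mt3 (r = 0.900) among 14952 genes. For Asns they were Fmn1 (r = 0.886), Usp11 (r = 0.880) and Klhdc8a (r = 0.865), and for Ddit3 they were Fndc5 (r = 0.886), Slc41a1 (r = 0.879) and Palmd (r = 0.876).

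On GRCm38, Ddit3 (ENSMUSG00000025408, chromosome 10, 127290774 to 127296288, plus strand) overlaps Mars on the other strand, and Atf5 (ENSMUSG00000038539, chromosome 7, 44812256 to 44816658, minus strand) overlaps Il4i1 and Nup62. Whether the counting used strand was not given in the sources used here, so reads in the shared stretches of these genes, and of Psph, Manf, Eif2ak1, Yars, Fgfr1 and Cxcl10, which also overlap a gene on the other strand, may include reads of the partner. Atf3 (ENSMUSG00000026628, chromosome 1, 191170296 to 191218039, minus strand), Atf4, Trib3, Asns, Chac1 and Sesn2 overlap no gene with a mean of at least 10 counts.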

How the data were processed

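The authors deposited raw counts of reads per Ensembl gene in 1 table for all 16 samples, with no normalization. Tools listed in the submitters' processing notes were HTSeq 0.6.1p1, STAR 2.5.3a, Bowtie2 2.2.8 and cutadapt 1.10, with the build GRCm38 (mm10), and their roles were not listed. Libraries were made with a stranded messenger RNA kit, and the strand setting of the counting is not given in the sources used here. All 29730 identifiers matched GENCODE M21.

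Counts were tested with edgeR 4.0.16 under R 4.3.3. The filter by group left 14960 genes and took out 14770, among them Fgf21 and Gdf15. Library sizes were scaled by TMM, and 1 robust quasi-likelihood model was fitted to all 16 samples, with a common biological coefficient of variation of 18.7%. P values were adjusted over all genes by the Benjamini-Hochberg method, with DEGs at under 0.05. RPKM divides CPM by the exon length. The fit was tested on simulated data with known changes. P values measure the spread between samples as labelled. The intervals on pooled counts are exact binomial and cover counting error only.

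The 10 genes and the lists were chosen with earlier results of these data known. Named were all 10, from each list up to 4 genes called in KO_PBS vs WT_PBS or KO_ASO vs KO_PBS with the smallest P values, and the 3 genes most like each of 3 of the 10. Alternatives were DESeq2 1.42.0, RLE scaling, no scaling beyond totals, no filter, the compared groups alone, a replicate block and leaving out each sample.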

Additional observations from a re-analysis of the deposited data

Results flagged for a closer look

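None of the 32 groups of 4 values of the tested genes of the response held a mouse that stood apart by Dixon's criterion, which chance meets in about 5% of groups. The response to the oligonucleotide differed between genotypes for Mthfd2, with an interaction of -0.96 on the log2 scale (SE 0.16, edgeR adjusted P value = 0.0117), and all KO_ASO values lay below all KO_PBS values while all WT_ASO values (3.99 to 4.36 CPM) lay above all WT_PBS values (3.03 to 3.83 CPM). The wild-type difference alone was not called (log2FC 0.26, adjusted P value = 0.756), and in that comparison the groups did not overlap for 3.22% of all genes. It also differed for Fgfr1, with an interaction of -0.85 (SE 0.15, edgeR adjusted P value = 0.0193).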

How the results depend on the processing

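Single-gene results came to 90, with 1972 values over the alternatives, of which 1808 kept their direction and side of the threshold, 81 lost and 23 gained a call and 60 turned in sign. Atf3 was called higher in KO_PBS vs WT_PBS under all 22. Among the 8 genes of the response, the count of calls in KO_PBS vs WT_PBS was 2 with the compared groups alone and 1 to 2 on leaving out single libraries (2 without WT_PBS replicate 1 or KO_ASO replicate 4), and in KO_ASO vs KO_PBS it was 1 with DESeq2, 1 without scaling beyond totals and 0 to 1 on leaving out single libraries (1 without WT_PBS replicate 1 or 3 or KO_ASO replicate 4). All genes called in KO_PBS vs WT_PBS numbered 1878, and 997 to 2137 on leaving out libraries (1080 without WT_PBS replicate 4 and 997 without KO_PBS replicate 1). In KO_ASO vs KO_PBS they numbered 544, and 1045 with DESeq2, 300 with the compared groups alone and 208 to 831 on leaving out libraries (208, 322, 212, 328, 263 and 831 without KO_PBS replicates 1 and 4 and KO_ASO replicates 1 to 4 respectively). In WT_ASO vs WT_PBS they numbered 1, and 35 with DESeq2, 3 without the filter and 1 to 4 on leaving out libraries. In KO_ASO vs WT_ASO they numbered 11, and 402 with DESeq2, 6 with RLE size factors, 2 with the compared groups alone and 2 to 19 on leaving out libraries. In KO_ASO vs WT_PBS they numbered 6, and 87 with DESeq2 and 4 to 11 on leaving out libraries. The interaction gave 86, and 371 with DESeq2 and 23 to 102 on leaving out libraries. It has no fit with the compared groups alone, since it uses all 4. For the 95 other pathway genes, DESeq2 called 12 in KO_ASO vs KO_PBS, 1 in WT_ASO vs WT_PBS, 8 in KO_ASO vs WT_ASO, 1 in KO_ASO vs WT_PBS and 5 in the interaction. Leaving out libraries gave 11 to 25 in KO_PBS vs WT_PBS (11 without KO_PBS replicate 1 and 14 without KO_PBS replicate 2), 3 to 10 in KO_ASO vs KO_PBS (3 without KO_PBS replicate 1, KO_ASO replicate 1 or KO_ASO replicate 3, and 10 without KO_ASO replicate 4) and 1 to 4 in the interaction. The cause was not tested for any of these.

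No scaling beyond totals turned the log2FC of Atf4 to 0.040 in KO_PBS vs WT_PBS, 0.018 in KO_ASO vs WT_ASO and -0.022 in the interaction, that of Asns to 0.11 in KO_ASO vs WT_ASO and 0.0086 in KO_ASO vs WT_PBS, and that of Trib3 to -0.0028 in the interaction. Under that setting the median of all genes moved to 0.14 in KO_PBS vs WT_PBS and 0.11 in KO_ASO vs WT_ASO. It moved to 0.05 in KO_ASO vs WT_PBS and -0.04 in the interaction. The compared groups alone turned Asns to 0.0013 in KO_ASO vs WT_ASO. On leaving out single libraries, log2FCs that changed sign ran as follows. Atf5 ran from -0.12 to 0.19 in KO_PBS vs WT_PBS, -0.091 to 0.22 in KO_ASO vs KO_PBS, -0.18 to 0.13 in WT_ASO vs WT_PBS, -0.018 to 0.28 in KO_ASO vs WT_ASO, -0.074 to 0.29 in KO_ASO vs WT_PBS and -0.035 to 0.28 in the interaction. Trib3 ran from -0.060 to 0.23 in KO_PBS vs WT_PBS, -0.35 to 0.022 in WT_ASO vs WT_PBS, -0.026 to 0.28 in KO_ASO vs WT_ASO, -0.16 to 0.11 in KO_ASO vs WT_PBS and -0.14 to 0.23 in the interaction. Sesn2 ran from -0.049 to 0.17 in KO_PBS vs WT_PBS and -0.16 to 0.028 in KO_ASO vs WT_PBS. Asns ran from -0.17 to 0.20 in WT_ASO vs WT_PBS, -0.10 to 0.089 in KO_ASO vs WT_ASO and -0.17 to 0.20 in KO_ASO vs WT_PBS. Chac1 ran from -0.29 to 0.35 in KO_ASO vs WT_PBS, and Atf4 from -0.044 to 0.084 in the interaction.

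The labels number replicates 1 to 4 in each group without saying what a number shares. Deviations from the group means correlated above 0.1 in 11 of 24 same-numbered pairs (r from -0.078 to 0.435, median 0.075) and in 8 of 72 others (highest 0.195, median -0.027), and in 29 of 48 cases a sample correlated best with its own number in another group. Same-numbered samples were thus more alike than others. Not every same-numbered pair passed 0.1, the level required, and the design names no pairing, so the main fit did not use the numbers. A replicate block called 1305 genes higher and 1017 lower in KO_PBS vs WT_PBS, beside 1112 and 766 in the main fit. It called 198 and 554 in KO_ASO vs KO_PBS, beside 120 and 424, and 23 and 103 in the interaction, beside 9 and 77. Atf3 kept its call in KO_PBS vs WT_PBS (log2FC 1.63, edgeR adjusted P value = 0.0207). With the replicate block, 2 genes were called in WT_ASO vs WT_PBS and 44 in KO_ASO vs WT_ASO, the log2FC of Asns turned to 0.0093 in KO_ASO vs WT_ASO and that of Chac1 to -0.063 in KO_ASO vs WT_PBS. Of the named pathway genes, Angptl4 lost its call in KO_PBS vs WT_PBS (edgeR adjusted P value = 0.0588) and Pdia4 gained one in KO_ASO vs KO_PBS (0.0463). Leaving out each library for the pooled Gdf15 ratios, added after seeing the data, gave 2.74 to 9.15 for KO_PBS to WT_PBS and 0.289 to 0.670 for KO_ASO to KO_PBS. Depth limits Fgf21 and Gdf15, with at most 15 counts in a library.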
